A study of Arabidopsis thaliana with 16 samples.

Results

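ChIP-seq of the heat shock transcription factor HSFA1b in Arabidopsis leaves gave a set of narrow intervals that were called in heat-stressed overexpressing plants and in no other condition. The set comprised 1227 of the 13262 peaks in the list from 35S:HSFA1b plants under heat stress (HS), or 9.25% of that list and 14.5% of its 8449 peaks of at most 1000 bp. The members were selected on measured values. Each was a 35S HS interval on chromosomes 1 to 5 that was at most 1000 bp wide and overlapped, by 1 bp or more, no interval of the lists for 35S:HSFA1b under non-stress (NS), NP:HSFA1b under HS or NP:HSFA1b under NS. The 4 lists together held 35133 peaks.

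In 35S:HSFA1b plants, HSFA1b fused to RFP is expressed from the viral 35S promoter, which is active in most cells, in the Col-0 background, and chromatin was precipitated with an antibody against RFP. In NP:HSFA1b plants, HSFA1b fused to eYFP is expressed from its native promoter, and the antibody was against GFP. HS plants were held at 37 °C and 86% relative humidity for 30 min, and NS plants stayed at 23 °C and 60% relative humidity. Leaves came from plants of 5 weeks. Both constructs were carried in Col-0, so all plants kept the endogenous, untagged HSFA1b. The 16 samples formed 8 groups of 2: 35S:HSFA1b HS, 35S:HSFA1b NS, NP:HSFA1b HS, NP:HSFA1b NS and a control group for each. Each construct was represented by 1 transgenic line. The peak caller pooled the 2 libraries of a group, so each peak has 1 value and no error between plants can be given.

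HSFs act as trimers and bind heat shock elements (HSEs), in which the pentamer nGAAn is repeated in alternating orientation, usually in the promoters of heat-induced genes. Class A1 HSFs start the heat shock response, and their best known targets encode chaperones such as HSP70, HSP90, HSP100 and the small HSPs, and further HSFs. The G-box is a palindrome bound by bHLH and bZIP factors.

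Sequences are shown first for 4 of the 10 strongest members, ranks 2, 4, 6 and 10 by fold enrichment. They were picked because they contain GAAGAA, which had the lowest p among the 6-mers that were more frequent at summits than in their flanks. They are examples of the repeat and not typical windows, since 41.0% of the 307 members of highest fold enrichment and 25.8% of all members contain it. Each is the TAIR10 plus strand within 50 bp of the summit, 5′ to 3′, and capitals mark GAAGAA or its reverse complement TTCTTC.
AT5G60530 (LEA protein-like), chr5:24335404-24335504: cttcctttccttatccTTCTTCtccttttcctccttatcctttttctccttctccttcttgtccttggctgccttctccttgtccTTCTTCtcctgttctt
AT3G05060 (NOP56-like), chr3:1413294-1413394: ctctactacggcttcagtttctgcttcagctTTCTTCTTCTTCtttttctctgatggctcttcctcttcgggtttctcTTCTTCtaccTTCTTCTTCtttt
AT3G12860 (NOP56-like), chr3:4093804-4093904: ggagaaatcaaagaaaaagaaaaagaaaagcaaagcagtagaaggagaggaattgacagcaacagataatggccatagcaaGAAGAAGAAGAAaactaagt
AT2G39320 (cysteine proteinase), chr2:16417739-16417839: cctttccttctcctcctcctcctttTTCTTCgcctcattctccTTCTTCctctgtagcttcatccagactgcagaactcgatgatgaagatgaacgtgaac

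The next sequences show the strongest member of all, which has no GAAGAA in its window, the single member with an HSE of 3 alternating repeats, and the member of highest fold enrichment with a G-box. Capitals mark the HSE or the G-box.
NET1D (strongest member), chr1:731965-732065: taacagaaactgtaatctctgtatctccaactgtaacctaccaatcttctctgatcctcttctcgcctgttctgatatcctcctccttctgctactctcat
AT5G49850 (HSE), chr5:20262326-20262426: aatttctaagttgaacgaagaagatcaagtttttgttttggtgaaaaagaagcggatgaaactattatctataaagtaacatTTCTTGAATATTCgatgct
CAC3 (G-box), chr2:15920549-15920649: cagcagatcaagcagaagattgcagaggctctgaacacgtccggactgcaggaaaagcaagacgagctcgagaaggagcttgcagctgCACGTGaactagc

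The members were weak peaks. Fold enrichment, the ratio of the summit pileup to the local background, had a median of 1.48, quartiles of 1.42 and 1.57, and a range of 1.20 to 2.69. The summit pileup, the scaled number of fragments that cover the summit, ranged from 62.8 to 254.0 with a median of 69.98. Dividing out the step of 0.721 that 1 fragment added gave 87 to 352 fragments, with a median of 97. The caller had used the lowest background of the list, 46.5, for 1178 members (96.0%). The −log10 q had a median of 2.37, and the width a median of 372 bp with quartiles of 281 and 505 bp.

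Only 10 members (0.815%) reached a fold enrichment of 2, the limit that the study's methods give for its own peak sets. Among the other narrow 35S HS peaks, 271 of the 6836 that overlapped a 35S NS peak and no NP peak (3.96%) reached it, hereafter the shared peaks. Of the 386 narrow 35S HS peaks that overlapped an NP peak, 84 (21.8%) reached it. Median fold enrichments were 1.48 in the members, 1.56 in the shared peaks and 1.74 in the peaks that overlapped an NP peak. These values took part in the choice of the members and are a description.

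Values near the limits of the rule were as follows. The widest member was 1000 bp and the narrowest heat-only peak left out for its width was 1002 bp, and 77 heat-only peaks were wider than the limit. The 11 members wider than 950 bp had a median fold enrichment of 1.54, and the 6 heat-only peaks up to 1050 bp wide that were left out had one of 1.52. The smallest gap between a member and a 35S NS peak was 2 bp, and the smallest overlap that excluded a narrow 35S HS peak was 1 bp. The 26 members with a gap under 50 bp had a median fold enrichment of 1.44, and the 50 shared peaks with under 50 bp inside 35S NS peaks had one of 1.46. The median gap to the nearest 35S NS peak was 754 bp, with quartiles of 363 and 1854 bp, and 427 members (34.8%) lay within 500 bp of one. NP peaks were farther away, with a median gap of 38433 bp to the nearest NP HS peak and a smallest gap of 71 bp.

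The lists differ in depth, which bears on what heat-only means here. The 35S HS list was called from 13481546 treatment and 4863174 control fragments, and the 35S NS list from 19579327 and 12760222. The NP lists were shallower and shorter. NP HS had 2438702 treatment and 1139036 control fragments and 1259 peaks, and NP NS had 6783161 and 1686242 fragments and 972 peaks. How far the lack of NP peaks at the members reflects this depth was not tested. Of the 4 control libraries behind the 35S NS list, 2 also served the 35S HS list. At its lowest background the 35S HS list held peaks from a fold enrichment of 1.33 upwards, and the 35S NS list from 1.21. All but 1 of the members, 1226 (99.9%), had a fold enrichment of at least 1.21, which the higher limit of the 35S HS list largely fixed in advance. The limits also belong to different lowest backgrounds, 46.5 for 35S HS and 92.3 for 35S NS. This share therefore does not tell whether a member would have been called in NS plants. The NS signal at the members' positions was not analysed here, since the lists give values only where a peak was called.

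Chromosomes contributed very unequally to the set. Chromosome 3 held 494 members, chromosome 2 held 344, chromosome 5 held 261, chromosome 1 held 80 and chromosome 4 held 48. The rule leaves out sequence under 35S NS peaks, and these covered 45.5% of chromosome 3, 11.1% of chromosome 2, 61.1% of chromosome 5, 69.7% of chromosome 1 and 6.79% of chromosome 4. Per uncovered Mb there were 38.6 members on chromosome 3, 24.9 on chromosome 5, 19.6 on chromosome 2, 8.68 on chromosome 1 and 2.77 on chromosome 4. The densities per uncovered Mb thus still differed. Narrow 35S HS peaks were themselves uneven, and members made up 17.6% of the 2814 on chromosome 3, 23.9% of the 1442 on chromosome 2, 11.1% of the 2350 on chromosome 5, 5.20% of the 1537 on chromosome 1 and 15.7% of the 306 on chromosome 4.

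Members were also bunched within chromosomes. On chromosome 3 the middle 50% of the summits lay between 5.31 and 8.10 Mb, and on chromosome 2 between 8.40 and 12.7 Mb. The median gap between a member and the nearest other member was 6473 bp, with quartiles of 1700 and 20695 bp. The pericentromere, defined by low gene density, spanned 19.2 Mb and held 45 members (3.67%), of which 2.22% had the summit in a coding exon, against 56.2% of the 1182 members outside it.

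**Figure D1:**
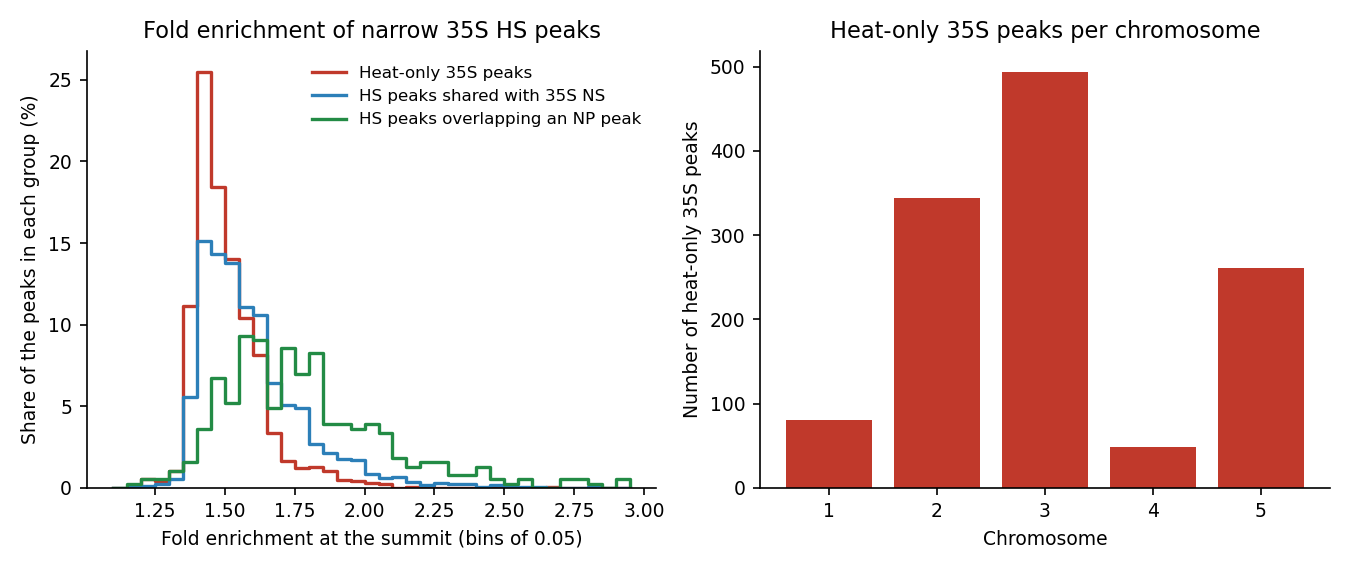
The left panel plots the share of peaks (%) in each fold enrichment bin of 0.05 for the heat-only 35S peaks (n = 1227), the shared 35S HS peaks (n = 6836) and the 35S HS peaks that overlap an NP peak (n = 386), drawn up to a fold enrichment of 3. The right panel gives the number of heat-only peaks per chromosome, from 48 on chromosome 4 to 494 on chromosome 3. The heat-only distribution is the narrowest and lies lowest, with a median of 1.48.

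The summits lay mainly in coding sequence. Of the 1227 members, 665 (54.2%, 95% interval 51.4 to 57.0%) had the summit in a coding exon, against 2060 of the 6836 shared peaks (30.1%) and 1808 of the 8494 narrow 35S NS peaks that overlapped no 35S HS or NP peak (21.3%), hereafter the NS-only peaks. The differences were 24.1 and 32.9 percentage points (2-sided Fisher exact test over intervals, exact adjusted p = 2.03e-57 against shared and 8.16e-119 against NS-only peaks, 2 comparisons chosen after the values were seen). Coding exons make up 28.3% of chromosomes 1 to 5 and 30.7% of the bases outside 35S NS peaks, the only sequence where a member could lie in full. The rule thus constrains the coding-exon comparison, and how much of the differences that accounts for was not tested. A further 109 member summits (8.88%) were in untranslated exons, 167 (13.6%) in introns, 82 (6.68%) in genes of another biotype and 204 (16.6%) between genes. Between genes lay 33.6% of the shared and 43.2% of the NS-only summits.

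A smaller share of members than of the other 35S peaks lay at transcription start sites (TSSs). Within 250 bp of a TSS lay 177 member summits (14.4%), against 2149 shared (31.4%) and 3229 NS-only summits (38.0%). Both differences passed the test (2-sided Fisher exact test over intervals, adjusted over 8 comparisons, p = 7.36e-37 against shared and 1.89e-65 against NS-only peaks). Sequence within 250 bp of a TSS makes up 12.7% of the bases outside 35S NS peaks and 15.0% of the chromosomes, so the members' share was near that of the sequence open to them. The median distance to the nearest TSS was 1018 bp for members, 639 bp for shared and 555 bp for NS-only peaks. Summits inside or downstream of the gene with the nearest TSS made up 68.4% of members, against 61.8% of shared peaks (exact adjusted p = 1.27e-05) and 54.5% of NS-only peaks (exact adjusted p = 4.84e-20, same test). Where the 35S NS peaks lie constrains both comparisons, because it fixes where a member can be, and how much of the differences this accounts for was not tested.

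**Figure D2:**
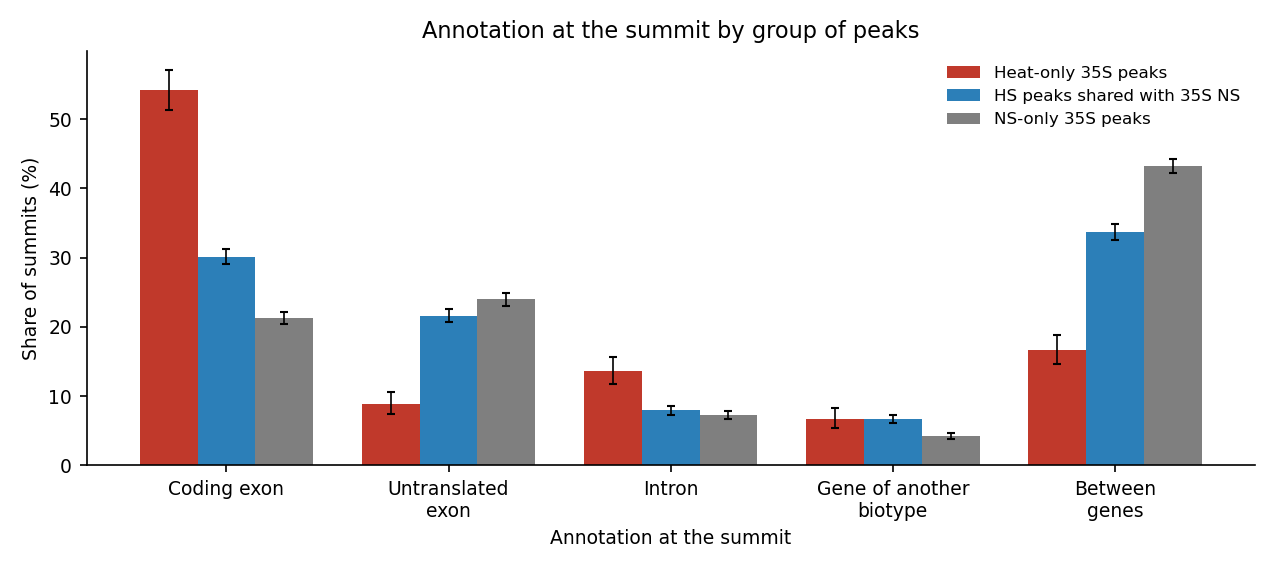
Bars give the share of summits (%) in each annotation class for heat-only 35S peaks (n = 1227), shared 35S HS peaks (n = 6836) and NS-only 35S peaks (n = 8494), and error bars are exact 95% binomial intervals over peaks. Coding exons hold 54.2% of the heat-only summits, against 30.1% of the shared and 21.3% of the NS-only summits.

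Within protein-coding genes the 941 member summits were spread along the transcription unit, with a median position 53.4% of the way from the TSS to the gene end and quartiles of 26.6% and 76.6%. The coding exons that held a member summit were long, with a median of 522 bp over 665 summits, against 486 bp in shared and 411 bp in NS-only peaks. The median coding exon of the annotation was 135 bp, and the exon that holds the median coding base was 381 bp. The share in coding exons was 49.5% in the 307 members with the lowest fold enrichment and 62.9% in the 307 with the highest. The share within 250 bp of a TSS was 10.7% in the lowest and 18.2% in the highest 307.

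Several genes carried more than 1 member. The 1023 summits inside genes fell in 901 genes, of which 100 held 2 or more. POK2 (AT3G19050), a kinesin that positions the phragmoplast at cell division, held 7 member summits with fold enrichments of 1.42 to 1.81. POK1 (AT3G17360), the related kinesin, held 4 at 1.42 to 1.54. TSK (AT3G18730), which is needed for genome maintenance and meristem structure, held 4 at 1.45 to 1.59, and PRP40B (AT3G19670), a pre-mRNA processing protein, held 4 at 1.36 to 1.68. AT2G17930, of the phosphatidylinositol 3- and 4-kinase family, held 4 at 1.39 to 1.43. These 5 loci, named because they held the most summits and not by the rule for named genes, are long, and all but AT2G17930 lie on chromosome 3.

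The strongest member, at chr1:731588-732416, had a fold enrichment of 2.69, a pileup of 127.0 and a −log10 q of 18.1. Its summit was in a coding exon of NET1D (AT1G03080), which encodes an actin-binding protein of the NET family, 93.2% of the way along the gene. The nearest TSS was that of AT1G03070, a Bax inhibitor-1 family gene, 2185 bp away. The second, at chr5:24335177-24335664 (2.21-fold), was 20.7% of the way along AT5G60530, a LEA-related gene, 404 bp from its TSS. LEA proteins accumulate in dehydrating seeds and protect other proteins. A second LEA family gene, AT4G21020, held the member at chr4:11228791-11229341 (2.07-fold), 53.3% of the way along. The enrichment of NET1D stood above the other 9 of the top 10, which ranged from 2.01 to 2.21.

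Both members of a pair of NOP56-like genes were in the top 10. NOP56 is a core protein of the box C/D snoRNPs, which methylate ribosomal RNA. At chr3:1413153-1413501 (2.07-fold) the summit was 85.0% of the way along AT3G05060, and at chr3:4093608-4094057 (2.06-fold) it was 87.0% of the way along AT3G12860. The windows printed for them carry GAA repeats on opposite strands of the reference, and the genes also run in opposite directions. Because these genes are alike, reads could be shared between the copies, and how multiply mapped reads were treated is not given in the sources used here.

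A further pair of the top 10 was in genes for subunits of nuclear factor Y, the CCAAT-binding complex. The member at chr2:15576035-15576324 (2.16-fold) was in an intron of NF-YB8 (AT2G37060), 196 bp from its TSS, and that at chr2:11745103-11745747 (2.03-fold) was in a coding exon of NF-YB11 (AT2G27470). The nearest TSS to the NF-YB11 peak was 559 bp away, that of AT2G08205, an antisense transcript of the same locus. The member at chr4:7043837-7044632 (2.04-fold) had its summit in untranslated exon sequence of HSFB2b (AT4G11660), 79.6% of the way along the gene. This gene encodes a class B HSF that represses transcription and is itself heat-induced. The nearest TSS there, 89 bp away, was that of the antisense transcript AT4G05910, so the rule of the nearest TSS assigned the peak to it. The member at chr2:16417432-16417921 (2.01-fold) was in AT2G39320, a cysteine proteinase gene. Of the 10 summits, 8 were in coding exons.

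Some members were at genes of the heat shock response. By nearest TSS, 5 of the 1227 members were assigned to the 88 loci of the 7 gene lists, which are 88 of the 37899 annotated genes. The strongest was at chr1:3921681-3922218 (1.94-fold) in AT1G11660, an HSP70 family gene, 1584 bp from its TSS. Hsp70-15 (AT1G79920), an HSP110-type nucleotide exchange factor, held the member at chr1:30061112-30061631 (1.58-fold). HSP93-III (AT3G48870), a chloroplast Clp ATPase of the HSP100 family, held that at chr3:18124712-18124999 (1.46-fold). Hsp81.4 (AT5G56000), a cytosolic HSP90, held that at chr5:22677819-22678142 (1.39-fold). Each of these 4 summits was in a coding exon 1555 to 2314 bp from the TSS. ROF1 (AT3G25230), a peptidyl-prolyl isomerase that binds HSP90, was the nearest gene to the member at chr3:9187226-9187554 (1.48-fold), which lay between genes, 735 bp upstream. Counts by nearest TSS follow in the order of 1227 members, 6836 shared, 8494 NS-only and 386 NP-overlapping peaks. The HSF list had 0, 5, 8 and 1, and the HSP90 list 1, 0, 1 and 0. The HSP70 list had 2, 4, 1 and 3, and the HSP100 list 1, 5, 1 and 1. The small HSP list had 0, 1, 1 and 2, and the other heat response list 1, 3, 2 and 1. The transcription factor and light list had 0, 1, 5 and 4. These counts were not tested.

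By the gene that held the summit rather than by nearest TSS, a choice made after the values were seen, 7 of the 88 listed loci (7.95%) carried a member, against 901 of all 37899 annotated genes (2.38%). The 3 added were HSFB2b, the endoplasmic reticulum HSP90 gene SHD (AT4G24190, chr4:12552440-12552761, 1.46-fold, coding exon) and the mitochondrial HSP70 gene MTHSC70-2 (AT5G09590, chr5:2976703-2977699, 1.46-fold, intron). Together 6 of the 30 HSP90, HSP70 and HSP100 loci held a member summit , against 828 of 27444 protein-coding genes (3.02%). These are counts of few loci with no test, and gene length was not taken into account. Shared and NS-only peaks were not counted by the gene that held the summit. The 16 small HSP genes, the 14 other heat response genes and the 7 transcription factor and light genes named by the study held 0 member summits. SR45a (AT1G07350), a heat- and light-responsive splicing factor gene outside the lists that was noticed after the values were seen, held the member at chr1:2257287-2258154, which ranked 11 with a fold enrichment of 1.996.

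The motif of the factor itself was found at 1 summit. The exact HSE, searched as GAANNTTCNNGAA on both strands, was within 50 bp of 1 of 1227 member summits (0.0815%, exact 95% interval 0.00206 to 0.453%). It was in 6 of the 2454 flank windows of 101 bases centred 500 bp from the summits (0.244%, exact adjusted p = 1.0) and in 0.195% of all consecutive 101-base windows of the genome. The difference between members and shared peaks (0.278%) or NS-only peaks (0.365%) did not pass the test (exact adjusted p = 0.346 and 0.200). The counting interval of the members reaches 0.453% and so includes the shares of both groups. In the narrow 35S HS peaks that overlapped an NP peak, 20 of 386 summit windows had the HSE (5.18%), against 0.518% of their flanks. The 1 member with the HSE, at chr5:20262274-20262725 (1.42-fold), was in an intron of AT5G49850, a mannose-binding lectin gene, 209 bp from the TSS.

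Looser forms of the HSE did not pass the test between summits and flanks either. Allowing 1 mismatch, 53 summit windows (4.32%) and 3.71% of the flank windows had an HSE (exact adjusted p = 1.0). With 2 alternating repeats the shares were 8.07% and 7.99% (exact adjusted p = 1.0).

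The G-box, CACGTG, was within 50 bp of 8 member summits (0.652%, exact 95% interval 0.282 to 1.28%) and in 18 flank windows (0.733%, exact adjusted p = 1.0). It was in 3.16% of shared and 4.603% of NS-only summit windows, and the members differed from both (2-sided Fisher exact test over intervals, exact adjusted p = 3.75e-08 and 2.03e-14). The shared and NS-only peaks had 0.834% and 1.08% in their flanks, and 1.11% of all genomic windows had the motif. With all windows restricted to coding exons, a setting chosen after the values were seen, 5 of 665 member summits (0.752%) had it, against 2.09% of shared (exact adjusted p = 0.0346) and 2.77% of NS-only summits (exact adjusted p = 0.00284). The rule constrains these comparisons between groups, as it does those of location. Members overlap no NS peak, whereas shared peaks overlap one and NS-only peaks are NS peaks themselves. How much of the G-box differences this accounts for was not tested. The 5 members of highest fold enrichment with a G-box were in coding exons of CAC3 (AT2G38040, chr2:15920021-15920791, 1.86-fold), an acetyl-CoA carboxylase subunit, DAR2 (AT2G39830, chr2:16623465-16623911, 1.77-fold), AT3G09620 (chr3:2951646-2952048, 1.75-fold) and CYP96A1 (AT2G23180, chr2:9876035-9876428, 1.42-fold), and in the pseudogene AT2G13390 (chr2:5567111-5567373, 1.595-fold). Of these, only that at AT2G13390 was within 250 bp of a TSS.

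The other motifs of the study did not set summits apart in this test. The stress response element STRE, AGGGG, was in 7.01% of summit windows and 5.05% of flank windows (exact adjusted p = 0.115 over 6 motifs). This call depended on the setting. With windows of 100 bp on each side the shares were 12.9% and 8.64% (exact adjusted p = 0.000446), and with flanks 1000 bp away they were 7.01% and 4.48% (exact adjusted p = 0.0106). With windows centred in coding exons alone, chosen after the values were seen, they were 7.22% and 6.92% (exact adjusted p = 1.0). The UPRE, TGACGTGA or TGACGTGG, which shares ACGTG with the G-box, was in 0.326% of summit and 0.367% of flank windows. The CArG box was in 0.652% and 0.570%, and the LEAFY motif CCANTG was in 13.3% of both (exact adjusted p = 1.0 for each of the 3).

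**Figure D3:**
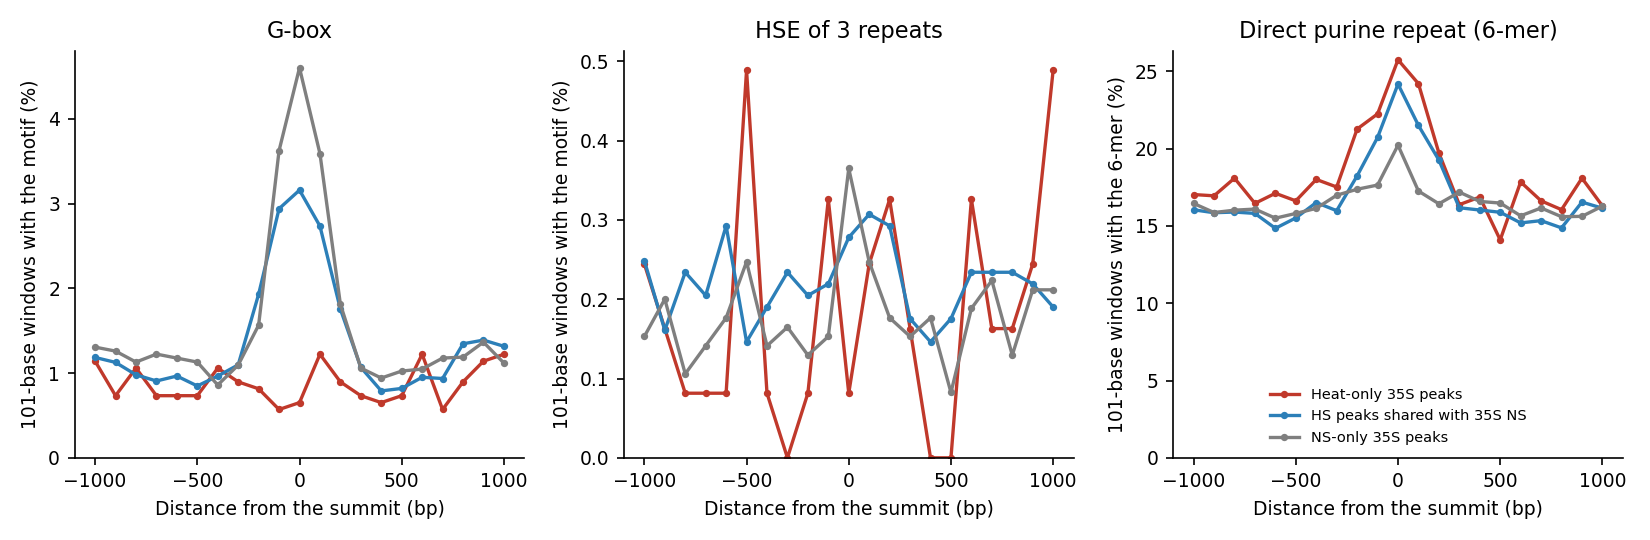
Lines give the share (%) of 101-base windows that contain the G-box, the exact HSE of 3 repeats or the direct purine repeat GAAGAA, against the distance of the window centre from the summit in bp, for heat-only 35S peaks (n = 1227), shared 35S HS peaks (n = 6836) and NS-only 35S peaks (n = 8494). The G-box peaks at the summits of the shared (3.16%) and NS-only peaks (4.603%) but not at heat-only summits (0.652%). The purine repeat rises at the summits of each group, to 25.8% in heat-only, 24.2% in shared and 20.2% in NS-only peaks. At 1227 windows a point, the HSE line of the heat-only peaks moves by 1 window in steps of 0.0815%.

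A scan of all 6-mers, each counted with its reverse complement, found 88 in more summit than flank windows (4.23%) and 112 in fewer (5.38%, 2-sided Fisher exact test, adjusted p of at most 0.05). The lowest p among the higher ones was that of GAAGAA, in 316 of 1227 summit windows (25.8%) and 377 of 2454 flank windows (15.4%, exact adjusted p = 4.50e-11). The shifted forms AAGAAG (24.5% of summit and 14.8% of flank windows) and AGAAGA (25.9% and 16.1%) followed. GGAAGA was in 14.8% and 7.99%, and CTCTCC in 8.80% and 3.91%. Of the 88, 35 (39.8%) were made of purines alone on 1 strand, against 3.08% of all 6-mers. Of the 112 lower ones, 35 (31.3%) held only A and T, against 1.73% of all, led by AAAATT with 9.62% of summit and 19.2% of flank windows. GAAGAA repeats the GAA triplet directly, without the spacing and the alternating orientation of an HSE.

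**Figure D4:**
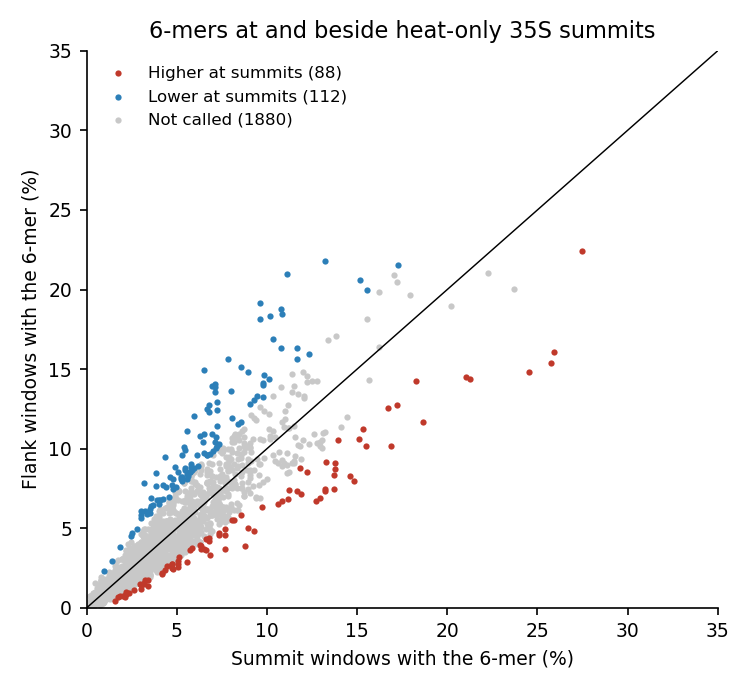
Each point is a 6-mer, with the share (%) of the 1227 heat-only summit windows that contain it on the horizontal axis and the share (%) of the 2454 flank windows on the vertical axis, and the line marks equal shares. The 88 called higher at summits lie below the line and the 112 called lower lie above it.

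The purine repeat was also more frequent at the summits of the other peaks than in their flanks. GAAGAA was in 24.2% of shared and 20.2% of NS-only summit windows, against 15.7% and 16.1% of their flanks, and in 16.1% of all genomic windows. The longer repeat GAAGAAGAA was in 71 member summit windows (5.79%) and 1.39% of the flanks, and in 5.32% of shared and 3.44% of NS-only summit windows. These shares were looked up after the scan and carry no test. Within the members GAAGAA was in 41.0% of the windows of the 307 members of highest fold enrichment and in 17.9% of the 307 of lowest. By feature it ranged from 40.4% of the 109 summits in untranslated exons and 30.4% of the 665 in coding exons to 12.7% of the 204 between genes. In coding exons it was read on the coding strand alone at 143 summits, on the other strand alone at 51 and on both at 8. Strands were not counted in flanks, in the other peaks or in coding sequence as a whole. The split therefore cannot be called particular to the members.

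Base composition moved together with the 6-mers. Mean GC content was 40.0% ± 7.36 at member summits (SD over 1227 windows) and 36.1% ± 8.35 in their flanks (2454 windows). Of the flank windows, 35.9% were centred in coding exons, against 54.2% of the summits. Among windows in coding exons the GC contents were 43.9% ± 5.60 (n = 665 summits) and 43.0% ± 5.32 (n = 881 flanks), and elsewhere they were 35.4% ± 6.49 (n = 562) and 32.2% ± 7.15 (n = 1573). Shared and NS-only summits also had a higher mean GC content (38.8% and 38.1%) than their flanks (34.6% and 34.5%). With both summit and flank windows restricted to coding exons, a setting chosen after the values were seen, only 2 of the 6-mers were called, GAAGAA and GGAAGA. The repeat GAAGAA was then in 30.4% of summit and 19.9% of flank windows (exact adjusted p = 0.00458), and outside coding exons it was in 20.3% and 12.8%. At shared summits GAAGAA was in 28.0% of windows in coding exons and 22.6% elsewhere, against 22.1% and 13.3% of their flank windows. At NS-only summits the shares were 23.5% and 19.4%, against 23.3% and 13.4% of flank windows, so the rise in coding exons was nearly absent there. In the 35S HS peaks that overlapped an NP peak they were 17.1% (82 summits) and 21.1%, against 21.3% and 14.0% of flank windows. The groups were not tested against each other. AAAATT was not called in coding exons, where its share at summits minus flanks was -3.36 percentage points (exact adjusted p = 0.345).

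**Figure D5:**
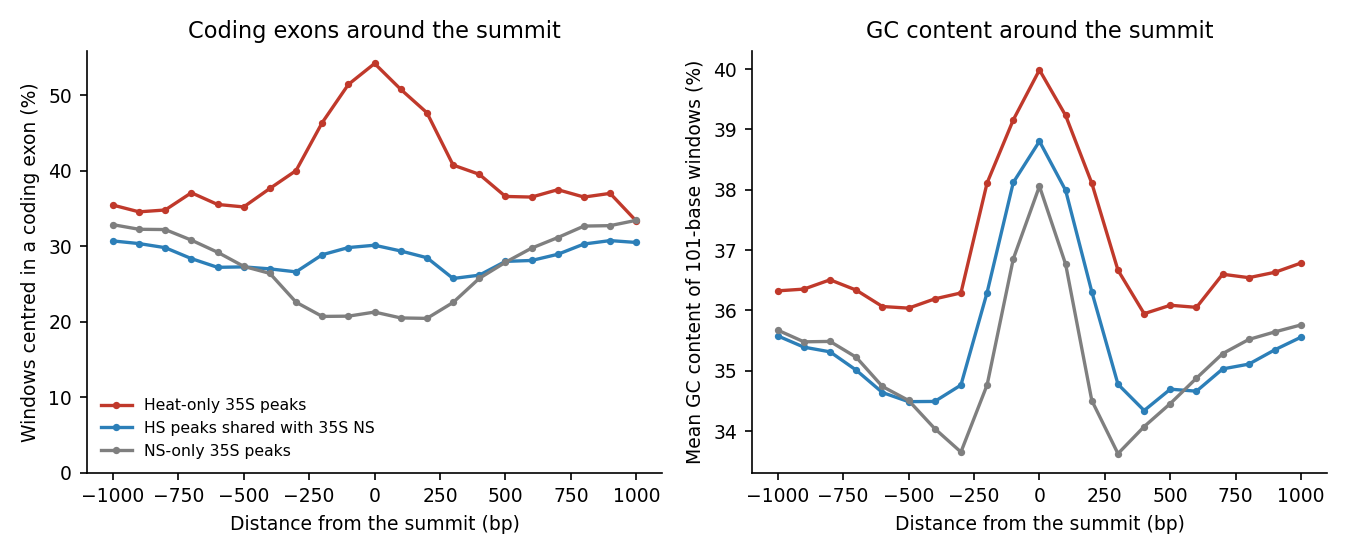
Lines give, against the distance from the summit in bp, the share (%) of 101-base windows centred in a coding exon (left) and their mean GC content (%, right, axis not starting at 0) for heat-only 35S peaks (n = 1227), shared 35S HS peaks (n = 6836) and NS-only 35S peaks (n = 8494). Coding share rises to 54.2% at the heat-only summits and is 21.3% at the NS-only summits, while GC content is highest at the summit in all 3 groups.

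The genes nearest to the members were mostly protein-coding. Of the 1227 nearest TSSs, 1030 (83.9%) were of protein-coding genes, against 72.4% of all annotated genes. Shared and NS-only peaks had 82.6% and 85.6%, so this share was not particular to the members. Pseudogenes made up 87 (7.09%) of the nearest genes, against 12.8% of all, and long non-coding or antisense RNAs 70 (5.70%), against 9.39% of all. For pseudogenes the shared and NS-only peaks had 6.93% and 3.59%, and for these RNAs 6.57% and 6.86%. Genes for tRNAs made up 6 (0.489%), against 1.65% of all. The shared and NS-only peaks had 1.49% and 1.71% at tRNA genes. Among the protein-coding genes, 44 (4.27%) encoded receptor-like or other protein kinases, 21 (2.04%) transcription factors, 13 (1.26%) ribosomal proteins, 4 (0.388%) disease resistance proteins and 3 (0.291%) histones, against 3.16%, 1.596%, 1.25%, 0.707% and 0.419% of all annotated protein-coding genes. In the same order, shared peaks had 4.20%, 1.75%, 1.13%, 0.709% and 0.531%, and NS-only peaks had 4.09%, 1.72%, 1.24%, 0.509% and 0.413%. None of the 1030 was a photosystem or light-harvesting gene. The annotation holds 63 of these (0.230% of protein-coding genes), and shared and NS-only peaks had 0.213% and 0.220%. Neither biotypes nor product classes were tested.

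F-box genes, which encode the substrate-binding subunits of SCF ubiquitin ligases, were the nearest genes of 40 members (3.88% of 1030), against 1.63% of shared and 1.27% of NS-only peaks and 2.38% of all protein-coding genes. This class was chosen after the values were seen and has no test. The 40 members were at 29 loci, and 34 of them were on chromosome 3, where the members as a whole were also most frequent. Many F-box genes stand in clusters of similar copies, between which reads could be shared.

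Members differed among chromosomes in their position at genes. On chromosome 4, 35.4% of the 48 members were within 250 bp of a TSS, against 7.5% of 80 on chromosome 1, 14.5% of 344 on chromosome 2, 14.6% of 494 on chromosome 3 and 12.3% of 261 on chromosome 5. Chromosome 4 was also the least covered by 35S NS peaks. Its members had a median fold enrichment of 1.59, against 1.46 to 1.49 on the other chromosomes. With 48 members the comparison of TSS-proximal shares on chromosome 4 alone did not pass the test, at 35.4% of members, 45.1% of shared peaks (exact adjusted p = 0.347) and 47.7% of NS-only peaks (exact adjusted p = 0.223). Coding exons held 61.0% of the summits on chromosome 2 and 48.6% on chromosome 3.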

How the data were processed

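The authors mapped paired-end ChIP-seq reads to TAIR10 with GSNAP, allowed 1 mismatch, removed duplicates with SAMtools and called peaks with MACS2 (2.0.10.20131028 per the file headers, q limit 0.05). The caller pooled 2 treatment libraries per list, against 2 control libraries, or 4 for 35S NS. It removed 46.0% of treatment and 64.0% of control fragments as redundant for 35S HS, and 35.0% and 61.0% for 35S NS. The deposited values used here were, per the file headers, the fold enrichment (a ratio), the summit pileup (fragment coverage signal) and the q-value (as its −log10). The deposited pileups of the 35S HS list are scaled. The authors' later filters (fold enrichment of at least 2, pericentromeric and broad peaks removed) were not applied here.

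Background was recovered as (pileup + 1) divided by fold enrichment, minus 1. Annotation and sequence were from the RefSeq copy of the same assembly (37899 genes, 27444 protein-coding). A peak was assigned by its summit to the nearest TSS, and called proximal within 250 bp. Windows spanned 50 bp on each side of the summit, and flanks were centred 500 bp on each side. Of the 2454 flank windows, 12.4% were centred in some 35S HS peak. Shares were compared by 2-sided Fisher exact tests with Benjamini-Hochberg adjustment, over 6 motifs, 8 group comparisons, 2 added comparisons and all 6-mers (scipy, tested on simulated data). Summits and their flanks were compared as unpaired groups, and members near each other, such as those in the same gene, were treated as independent. The p-values compare intervals of pooled calls and do not measure variation between plants, and intervals are exact binomial (Clopper-Pearson, 95%) and cover counting error only.

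Named were the 10 members of highest fold enrichment, members with an exact HSE, the 5 strongest with a G-box, and members whose nearest TSS was in 7 gene lists. Of the 10, 1 is not reported here. The members and the lists were chosen with earlier results of these data known. Alternatives changed the width limit, fold enrichment, q, overlap with 35S NS peaks, pericentromere, chromosomes, windows, flanks, HSE and TSS definitions. In addition, 2 alternatives were chosen after seeing the data, coding-exon windows alone and chromosome 3 left out.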

Additional observations from a re-analysis of the deposited data

How the results depend on the processing

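No paired analysis was possible because each list pools its libraries, and for the same reason no replicate could be left out. Over 15 alternative settings, 147 of 177 tested differences kept their direction and side of the threshold, and 4 became 0. The LEAFY difference, 0 as reported, ran from -3.69 to 10.4 points over 11 settings, with a lowest exact adjusted p of 0.0938. The location and coding-exon differences and the G-box differences between groups kept their direction throughout.

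The number of members was 526 at a fold enrichment of at least 1.5, 800 with no 35S NS peak within 500 bp, 5397 when only 35S NS peaks of fold enrichment 2 or more counted, 48 on chromosome 4 and 733 without chromosome 3. The 6-mers called then numbered 107 at a fold enrichment of at least 1.5, 796 when only stronger 35S NS peaks counted, 343 with wider windows, 2 in coding exons and 0 on chromosome 4 (74 at an unadjusted p of at most 0.05).

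When only stronger 35S NS peaks counted, the set takes in most shared peaks, and the summit minus flank difference became 0.871 points for the G-box (exact adjusted p = 1.66e-06), 1.95 for STRE (exact adjusted p = 9.33e-07), 0.0926 for the HSE and 0.0556 for the UPRE. STRE also passed with wider windows (4.24 points) and with flanks at 1000 bp (2.53 points), and was 0.294 points in coding exons. On chromosome 4, differences from shared and NS-only peaks did not pass for the G-box (-4.65 and -6.16 points) or TSS proximity (-9.70 and -12.3), nor from shared peaks for inside or downstream location (15.9). GAAGAA (11.5 points) and AAAATT (-17.7) were not called there.

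Differences that did not pass the test in either setting changed sign. For the HSE against flanks they were 0.0407 with wider windows, 0.611 with 1 mismatch and 0.0815 with 2 repeats, and against shared peaks 0.194 and 0.125. For the G-box they were 0.188 (no 35S NS peak within 500 bp) and 0.0682 (without chromosome 3). For the UPRE it was 0.110 (500 bp width). For CArG they were -0.220 (500 bp width), -0.190 (fold enrichment 1.5), -0.375 (no 35S NS peak within 500 bp) and -0.457 (coding exons). The causes were not tested.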
